A study of Bos taurus with 6 samples.

Results

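Cyclins A, D and E and their partners were followed in single bovine (Bos taurus) oocytes at metaphase II and at the germinal vesicle stage. The members are the rows of the deposited gene table whose human ortholog symbol is CCNA1, CCNA2, CCND2, CCNE1, CCNE2, CDK2, CDK4, CDKN1B, CKS1B or CKS2. These 10 symbols fill 13 of the table's 20707 rows, since CCNA2 has 2 rows and CDK4 has 3. MII oocytes came from in vitro maturation of 24 hours and GV oocytes straight from follicle aspiration, in both cases from ovaries collected at an abattoir, with no other treatment named. A label that calls all samples matured in vitro goes against this for GV, and the stage labels were followed. There were 3 MII libraries (MII14c, MII15 and MII15c) and 3 GV libraries (GV14, GV14c and GV15), each from 1 oocyte per the labels. The breed and age of the animals, the meaning of the numbers and of the letter c, and whether any libraries share an animal are not given, so each p-value reflects only how far these libraries vary.

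Cyclins A and E bind CDK2 and carry dividing cells into and through DNA replication, and cyclin A also pairs with CDK1 later in the cycle. D-type cyclins act earlier through CDK4 and CDK6, and CDKN1B (p27) binds and inhibits the cyclin E and cyclin A complexes of CDK2. CKS1B and CKS2 are small adaptors that dock on CDKs and help them reach phosphorylated substrates, and CKS1B is also the cofactor with which the ubiquitin ligase SCF-SKP2 recognises CDKN1B. The oocyte passes through both meiotic divisions without replicating its DNA in between, and in mice loss of Cks2 arrests germ cells in the first division.

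Levels are RPKM, reads per kilobase of gene model scaled to library size, as the authors deposited them. Library depth recovered from the table was 21.27 to 32.56 M reads in MII and 20.21 to 29.92 M reads in GV, so that 1 RPKM of a 1 kb model stands for 20.2 to 32.6 reads. The kit named in the labels primes cDNA on poly(A) tails, so more transcripts and better captured tails cannot be told apart in a level. Of 15 oocyte marker genes, 13 were in the table and all 13 passed the filter on low values used below, with summed levels of 3488 to 4403 RPKM in MII and 7547 to 10698 RPKM in GV libraries. Of 22 markers of cumulus and granulosa cells, 21 were in the table, with summed levels of 127 to 144 RPKM in MII and 132 to 206 RPKM in GV libraries. Of these 7 were tested. HAS2 averaged 59.5 RPKM in MII and 16.3 RPKM in GV, and VCAN 7.99 RPKM in MII and 3.32 RPKM in GV, and both were called higher (limma). STAR averaged 35.4 RPKM in MII and 101 RPKM in GV, and CD44 1.80 RPKM in MII and 7.03 RPKM in GV, and both were called lower, while KRT8, GJA1 and PTGS2 did not pass. Their part in the results was not tested. The receptors LHCGR and AMHR2 were at 0 in all 6 libraries, as were PTX3 and NR5A1, and FSHR averaged 0 RPKM in MII and 0.00467 RPKM in GV. Deviations from the stage means followed the letter c, which ends the names of MII14c, MII15c and GV14c. Deviations cancel within a stage, so the correlations below are not independent, and positive values bring negative ones with them. Across 8671 genes the deviations of an MII and a GV library correlated at r = 0.0667 to 0.427 where both or neither carried the letter, and at r = -0.409 to -0.00826 where 1 of them did.

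Of the 13 rows, 9 reached a mean of 1 RPKM and were tested, 1 for each symbol except CCND2. CCNE1, CCNA2 and CKS2 were higher in MII, no member was lower (0 also at an unadjusted p under 0.05), and CCNA1, CCNE2, CDK2, CDK4, CDKN1B and CKS1B did not pass (limma on log2(RPKM + 1), Benjamini-Hochberg adjusted p under 0.05 over 8671 genes). Among all tested genes 13.4% were called higher and 26.9% lower, 40.3% in all. These are 1162 genes higher and 2329 lower, against 1687 and 2059 after median-ratio scaling and 2133 and 1777 after quantile normalization, which moved the median log2 change of all genes to 0.05 and 0.22. The median log2 change, MII minus GV, was 0.04 over the 9 members and -0.16 over all tested genes. In the same 3 members every MII library lay above every GV library, an order that 19.8% of tested genes showed. The opposite order held for 32.1%, and either for 51.9%. Without both GV14c and MII15c, the columns that match no sample title, only CCNA2 of the 9 passed (adjusted p = 0.0313).

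**Figure D1:**
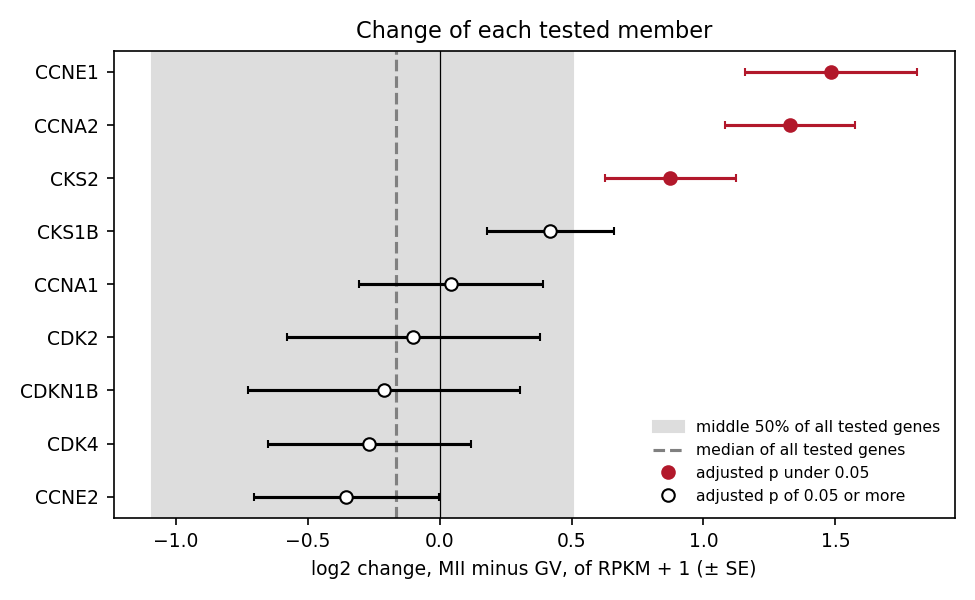
Log2 change of RPKM + 1, MII minus GV, for the 9 tested members; points are limma estimates, bars are ± SE, and filled red points have an adjusted p under 0.05. The grey band holds the middle 50% of all tested genes (-1.09 to 0.51) and the dashed line is their median; CCNE1, CCNA2 and CKS2 lie to the right of the band, and the other 6 within it.

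CCNA2, the A-type cyclin of somatic cells, was the most abundant of the 5 cyclins among the members. Its level was 81.0, 121 and 129 RPKM in MII14c, MII15 and MII15c, against 35.9, 49.2 and 43.2 RPKM in GV14, GV14c and GV15. The lowest MII library thus stood well above the highest GV library. The means were 110.2 ± 25.6 RPKM in MII and 42.7 ± 6.65 RPKM in GV (SD, n = 3 each; log2 change 1.33 ± 0.25, SE; limma adjusted p = 0.00303). The call held under all 18 alternatives tried, with log2 changes of 1.202 to 1.636.

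The CCNA2 row with these values is ENSBTAG00000004943, on chromosome 6 of the deposited annotation, whose genome build is not given in the sources used here. Its coding region runs from 3413332 to 3418923 on the plus strand in 8 exons, and the gene feature goes on for 670 bases past the stop codon. The last 47 bases of that feature overlap the 3' end of EXOSC9, which is read from the other strand, and the labels do not say that counting used strand. The second CCNA2 row, ENSBTAG00000046903, is a 604-base feature on chromosome 28 inside TET1 with no coding exon listed, and it was at 0 in all 6 libraries.

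CCNA1, the A-type cyclin that in mice is known from male meiosis, was lower than CCNA2 in every library. It had 6.25, 14.6 and 6.93 RPKM in MII14c, MII15 and MII15c, against 7.07, 8.525 and 9.64 RPKM in GV14, GV14c and GV15. The stages overlapped, with MII15 highest and MII14c lowest of all 6. Means were 9.25 ± 4.62 RPKM in MII and 8.41 ± 1.29 RPKM in GV (SD, n = 3 each; log2 change 0.04 ± 0.35, SE; limma adjusted p = 0.93). The row is ENSBTAG00000007284, with a coding region on chromosome 12 from 25129909 to 25140597 in 10 exons.

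In RPKM the order of the E-type cyclins differed between the stages, with CCNE1 called higher in MII and CCNE2 not called. CCNE1 had 5.16, 6.92 and 7.68 RPKM in MII14c, MII15 and MII15c, against 1.06, 2.33 and 1.84 RPKM in GV14, GV14c and GV15. At the recovered depths these are 410, 376 and 639 reads in MII and 81, 160 and 95 reads in GV. All MII values thus lay above all GV values, with means of 6.58 ± 1.29 RPKM in MII and 1.74 ± 0.639 RPKM in GV (SD, n = 3 each; log2 change 1.48 ± 0.33, SE; limma adjusted p = 0.0067). The call held under 16 of 17 alternatives (adjusted p = 6.35e-05 to 0.0544) and was lost without both columns that match no title (0.0544).

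CCNE2, the other activator of CDK2 at the start of replication, did not follow CCNE1. It stood at 1.66, 3.90 and 1.93 RPKM in MII14c, MII15 and MII15c, against 2.66, 3.13 and 4.26 RPKM in GV14, GV14c and GV15, or 281, 450 and 341 reads against 432, 458 and 468 reads. MII14c and MII15c were below all GV libraries and MII15 was among them. The means were 2.50 ± 1.22 RPKM in MII and 3.35 ± 0.825 RPKM in GV (SD, n = 3 each; log2 change -0.35 ± 0.35, SE; limma adjusted p = 0.453). Reads of CCNE2 may include those of a predicted gene on the other strand, which overlaps its 3' part over 3062 bases.

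Within a library, any scaling common to all genes cancels in a ratio of RPKM. It does not cancel fully in the log2 ratios of RPKM + 1, least of all for low genes such as these. CCNE1 was 3.10, 1.78 and 3.99 times the level of CCNE2 in MII14c, MII15 and MII15c, and 0.399, 0.742 and 0.431 times in GV14, GV14c and GV15. In RPKM, CCNE1 therefore exceeded CCNE2 in 3 of 3 MII libraries and in 0 of 3 GV libraries. This order rests on model lengths of 2556 bases for CCNE1 and 5433 bases for CCNE2. In recovered reads, CCNE2 was above CCNE1 in MII15, at 450 against 376, and in every GV library. The annotation notes, over an unstated pool, put CCNE1 above, with 1843 supporting reads against 644 for CCNE2. How far reads of the overlapping predicted gene enter the level of CCNE2 was not tested. On the log2 scale of RPKM + 1 the ratio averaged 1.16 ± 0.44 in MII and -0.68 ± 0.32 in GV (SD, n = 3 each), a difference of 1.83 (exact permutation test, two-sided, p = 0.1, the smallest that 3 against 3 allows; 0.233 adjusted over the 7 ratios computed). The ratio of CCNA1 to CCNA2 also separated the stages, at -3.50 ± 0.54 in MII and -2.21 ± 0.17 in GV (SD, n = 3 each; exact permutation p = 0.1, adjusted 0.233).

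**Figure D2:**
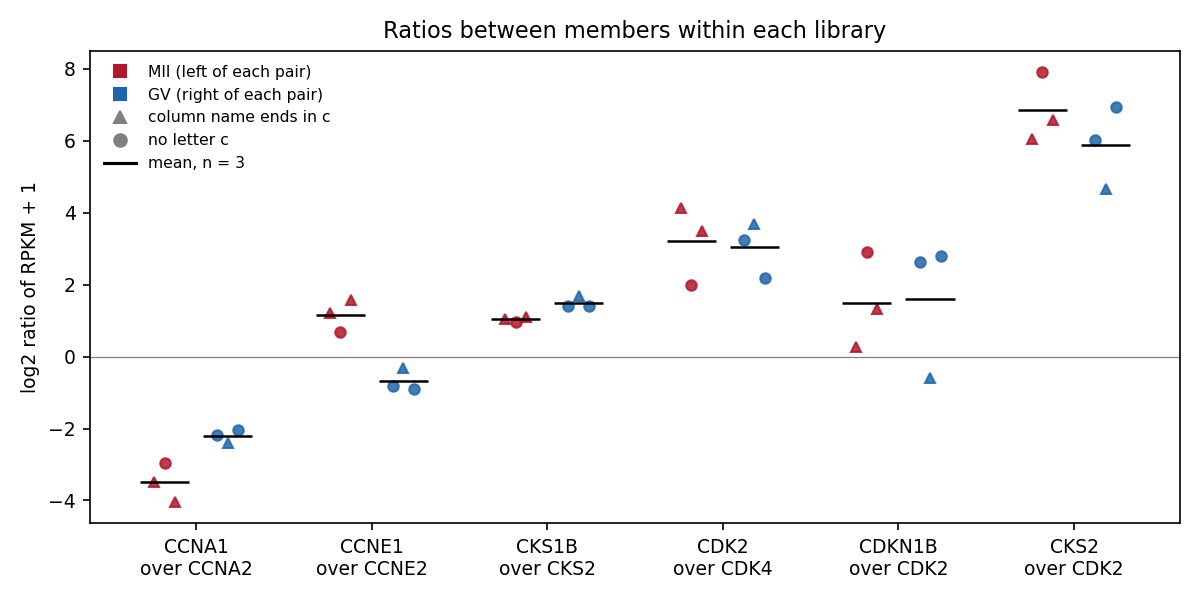
Log2 ratio of RPKM + 1 between pairs of members within each library, MII libraries left in red and GV libraries right in blue; triangles mark columns whose name ends in c and black lines are means of 3. The ratios of CCNA1 to CCNA2, CCNE1 to CCNE2 and CKS1B to CKS2 separate the stages, and the other 3 overlap.

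In the annotation CCNE1 is ENSBTAG00000004735, with a coding region on chromosome 18 from 40565286 to 40574789 in 9 exons and 1428 bases of gene feature past the stop codon. CCNE2 is ENSBTAG00000004906, on chromosome 14 from 71809141 to 71818065 in 8 exons, with 4374 bases past the stop codon. The genes whose values over the 6 libraries followed CCNE1 most closely were UQCRH, EPB41L5 and TMEM50B (Pearson r = 0.999, 0.997 and 0.995 on log2(RPKM + 1)), and 557 tested genes had r above 0.9. Since CCNE1 differs between the stages, these values mainly follow stage and are given as a description. Their own log2 changes were 0.55, 1.33 and 1.28.

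CDK2, the kinase that both cyclin families activate, showed no call between stages. It had 23.0, 10.0 and 18.6 RPKM in MII14c, MII15 and MII15c, against 14.2, 37.6 and 9.81 RPKM in GV14, GV14c and GV15. The highest and the lowest value were both GV libraries. The means were 17.2 ± 6.62 RPKM in MII and 20.6 ± 14.9 RPKM in GV (SD, n = 3 each; log2 change -0.10 ± 0.48, SE; limma adjusted p = 0.885).

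CDKN1B, the inhibitor of these complexes, was likewise spread within both stages. Levels were 28.0, 81.0 and 47.9 RPKM in MII14c, MII15 and MII15c, against 93.0, 24.5 and 73.8 RPKM in GV14, GV14c and GV15. The range of MII lay inside that of GV, with means of 52.3 ± 26.8 RPKM in MII and 63.8 ± 35.3 RPKM in GV (SD, n = 3 each; log2 change -0.21 ± 0.51, SE; limma adjusted p = 0.771).

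Both genes separated the libraries by the letter c in the column name and in opposite directions, a split examined after their values were seen. Of the libraries with the letter, GV14c and MII15c match no sample title, so the grouping rests on the column names. CDK2 averaged 26.4 ± 9.95 RPKM in the 3 libraries with the letter and 11.4 ± 2.51 RPKM in the 3 without, with no overlap. CDKN1B averaged 33.4 ± 12.6 RPKM with the letter and 82.6 ± 9.73 RPKM without (SD, n = 3 each), again with no overlap. The share of all tested genes that the letter separates in this way was not counted. With the letter as a term beside stage, CDK2 was higher by 1.28 ± 0.27 and CDKN1B lower by -1.42 ± 0.26 on the log2 scale (SE; limma adjusted p = 0.021 and 0.0125). In that fit 5.73% of tested genes were called higher and 1.56% lower with the letter (7.29% in all), the median log2 change of all genes was 0.22, and none of the other 7 tested members passed (adjusted p = 0.236 to 0.938).

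The letter's term kept its direction under all 15 alternatives, at 0.95 to 1.59 for CDK2 and -1.76 to -1.12 for CDKN1B, but not always its call. For CDK2 the call was lost without GV14c, GV15 or MII15 (limma adjusted p = 0.11, 0.06 and 0.0549; 0.0103 to 0.169 over 15 alternatives), and for CDKN1B without GV14c or MII15 (0.0717 and 0.0506; 0.00588 to 0.169). CDK2 also lost it after median-ratio scaling (0.0518) and quantile normalization (0.0536), both lost it with library weights (0.0607 and 0.0601) and with no filter (0.169 each). CDKN1B kept its call under both of those scalings (0.00588 and 0.0182). Without MII15 the changes were 1.59 for CDK2 and -1.72 for CDKN1B, and without GV14c 0.98 for CDK2 and -1.12 for CDKN1B. With the letter in the fit the stage difference remained uncalled, at -0.53 ± 0.27 for CDK2 and 0.26 ± 0.26 for CDKN1B (SE; limma adjusted p = 0.124 and 0.426). CCNA2, CCNE1 and CKS2 kept their stage call there (adjusted p = 0.000888, 0.00365 and 0.00177). What the letter stands for is not stated, and its part in these levels was not tested further.

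**Figure D3:**
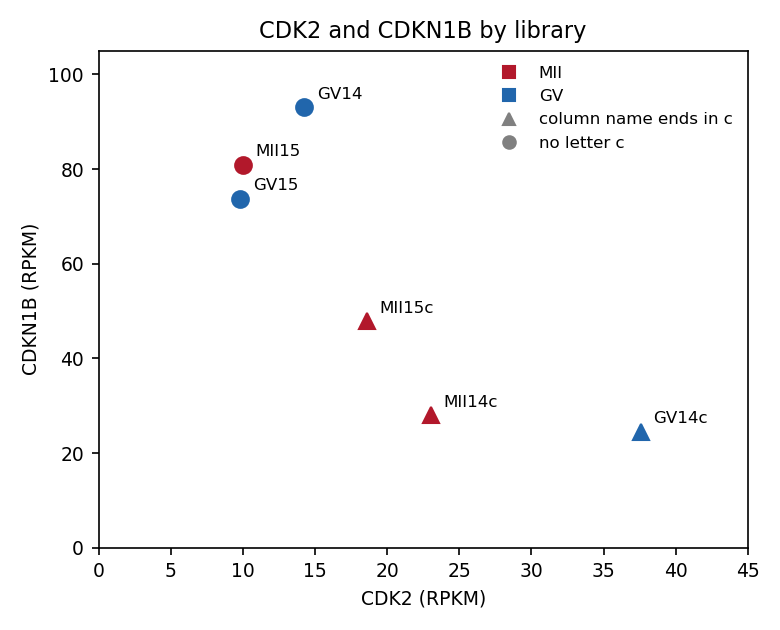
CDKN1B against CDK2 in RPKM, 1 point for each library, MII in red and GV in blue, with triangles for columns whose name ends in c. The 3 libraries with the letter have CDK2 at 18.6 to 37.6 and CDKN1B at 24.5 to 47.9 RPKM, and the 3 without have CDK2 at 9.81 to 14.2 and CDKN1B at 73.8 to 93.0 RPKM.

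CDK2 is ENSBTAG00000004021, with a coding region on chromosome 5 from 57664641 to 57668852 in 7 exons and 1119 bases of gene feature past the stop codon. CDKN1B is ENSBTAG00000018254, on chromosome 5 from 97580654 to 97581807 in 2 exons. Its feature reaches 4361 bases past the stop codon, 7.30 times its coding length of 597 bases. CCNE2 and CDKN1B thus have the longest such stretches among the members.

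The D-type cyclins were at 0 or low, under 1 RPKM in every library. CCND2, the D-type cyclin that in rodents is known from granulosa cells, was at 0 in all 3 MII libraries, against 0, 0.038 and 0.051 RPKM in GV14, GV14c and GV15, where the last 2 are 1 read each. A count of 0 allows up to 3 reads, which is 0.0948 to 0.145 RPKM in the MII libraries for its 972-base model (counting error only). No difference in CCND2 was detectable at this depth. CCND1 was at 0 in all 6 libraries. CCND3 averaged 0.433 ± 0.162 RPKM in MII and 0.196 ± 0.0847 RPKM in GV (SD, n = 3 each). Every MII library lay above every GV library for CCND3, an order that 19.8% of tested genes showed. CDK6 averaged 0.114 ± 0.198 RPKM in MII and 0.514 ± 0.334 RPKM in GV (SD, n = 3 each), with overlap. All of these were under the level tested.

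CDK4, the kinase of D-type cyclins, was the lowest member tested. It had 0.360, 1.79 and 0.734 RPKM in MII14c, MII15 and MII15c, against 0.599, 2.025 and 1.37 RPKM in GV14, GV14c and GV15, so that the stages overlapped. Means were 0.961 ± 0.742 RPKM in MII and 1.33 ± 0.714 RPKM in GV (SD, n = 3 each; log2 change -0.27 ± 0.38, SE; limma adjusted p = 0.613). CDK2 exceeded it in every library, by 5.59 to 64.0 times in MII and 7.18 to 23.8 times in GV.

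These values belong to ENSBTAG00000007160, whose coding region lies on chromosome 5 from 56039836 to 56041970 in 7 exons. The other 2 rows with the symbol CDK4 lie elsewhere. ENSBTAG00000045571, on chromosome 18, had 1 read in MII14c and none elsewhere. ENSBTAG00000046091, on chromosome 16, was at 0 in all 6 libraries, and its 5 coding segments are parted by gaps of 1 to 23 bases. CCND2 is ENSBTAG00000016649, on chromosome 5 from 106254002 to 106276812 in 5 coding exons.

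The CKS adaptors were far more abundant than any cyclin or kinase here. CKS1B had 3329.6, 5109.7 and 4053 RPKM in MII14c, MII15 and MII15c, against 2591, 3152 and 3526 RPKM in GV14, GV14c and GV15. It ranked between 5 and 7 among all 20707 rows in MII libraries and between 10 and 13 in GV libraries, and held 0.941% to 1.36% of summed RPKM in MII and 0.678% to 0.871% in GV. MII14c lay below GV15, so the stages overlapped, with means of 4164 ± 895 RPKM in MII and 3089.5 ± 471 RPKM in GV (SD, n = 3 each; log2 change 0.42 ± 0.24, SE; limma adjusted p = 0.195). It passed under 2 of 18 alternatives, quantile normalization (0.0141) and library weights (0.0224).

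CKS2 had 1602, 2635 and 1881 RPKM in MII14c, MII15 and MII15c, against 982, 981 and 1336 RPKM in GV14, GV14c and GV15. The stages did not overlap, although the gap between MII14c and GV15 was small beside the spread of MII. The means were 2039 ± 534 RPKM in MII and 1099.6 ± 204 RPKM in GV (SD, n = 3 each; log2 change 0.87 ± 0.25, SE; limma adjusted p = 0.0214). The call was lost under 6 of 18 alternatives, among them leaving out GV14 (adjusted p = 0.0736), GV14c (0.057), MII15 (0.0525) or MII15c (0.0635), within a range of 0.000966 to 0.147. Its rank was 12 to 16 in MII and 27 to 40 in GV libraries.

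CKS1B exceeded CKS2 in every library, but by less in MII. The ratio of CKS1B to CKS2 was 2.08, 1.94 and 2.15 in MII14c, MII15 and MII15c, against 2.64, 3.21 and 2.64 in GV14, GV14c and GV15. On the log2 scale this was 1.04 ± 0.08 in MII and 1.49 ± 0.16 in GV (SD, n = 3 each), a difference of -0.45 with no overlap (exact permutation p = 0.1, adjusted 0.233). The difference was -0.50 to -0.36 when any 1 library was left out. Supporting reads in the annotation notes, over an unstated pool, were fewer for CKS1B than for CKS2, at 23530 against 26598.

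CKS1B is ENSBTAG00000024476, on chromosome 3 from 15667604 to 15670973, and CKS2 is ENSBTAG00000001938, on chromosome 8 from 90300999 to 90305509. Both have 3 coding exons and a coding length of 240 bases. The gene features go on past the stop codon for 354 bases in CKS1B and 793 bases in CKS2. The first 39 bases of the CKS1B feature overlap SHC1 on the other strand.

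**Figure D4:**
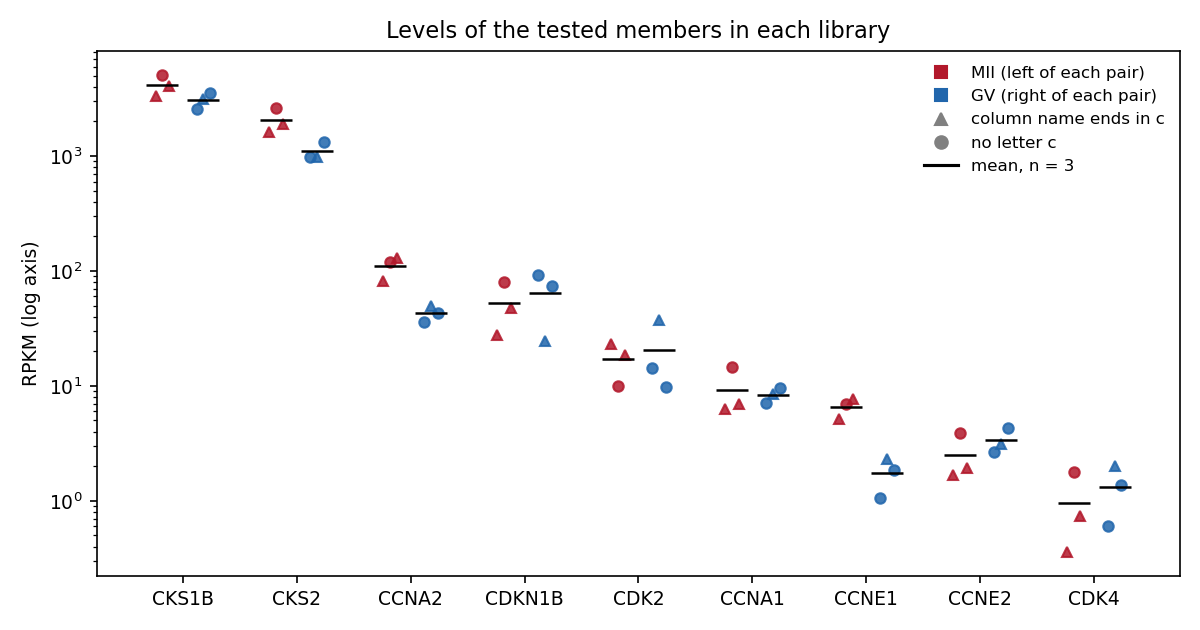
RPKM (log axis) of the 9 tested members in each library, MII left in red and GV right in blue; triangles mark columns whose name ends in c and black lines are means of 3. CKS1B and CKS2 lie between 981 and 5109.7 RPKM in all libraries, and CCNA2, CCNE1 and CKS2 have all MII points above all GV points.

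In order of mean level, MII had CKS1B, CKS2, CCNA2, CDKN1B, CDK2, CCNA1, CCNE1, CCNE2 and CDK4. Neighbours overlapped between CDK2 and CCNA1, CCNA1 and CCNE1, and CCNE2 and CDK4. GV had CKS1B, CKS2, CDKN1B, CCNA2, CDK2, CCNA1, CCNE2, CCNE1 and CDK4, with overlap between CDKN1B and CCNA2, CCNA2 and CDK2, and CCNE1 and CDK4. In RPKM, CCNA2 thus stood above CDKN1B in all 3 MII libraries, whereas in GV it did so only in GV14c. This order rests on model lengths of 2206 bases for CCNA2 and 5473 bases for CDKN1B. In reads recovered at these lengths, CCNA2 was above CDKN1B in MII14c and MII15c. It was below in MII15 (5656 against 9424) and in all GV libraries, including GV14c (2917 against 3608).

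Other genes of the pathway were taken from 5 lists of textbook regulators. Of 37 tested genes 9 were higher in MII, 9 were lower and 19 did not pass, beside 13.4% of all tested genes called higher and 26.9% lower. Without both columns that match no title, 3 were higher and 5 lower. CDC34, CDK20, CDKN2D, CDKN3 and E2F2, called lower, averaged under 1 RPKM in MII and passed the filter only through GV. CCNC and E2F8, called higher, averaged under 1 RPKM in GV and passed it only through MII.

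Components and partners of SCF, the cullin-based ubiquitin ligase that marks CDKN1B and cyclin E for degradation, held most of the rises. Of 8 tested, 5 were higher, CDC34 was lower and FBXW7 and UBE2R2 did not pass. The median log2 change of the list was 0.81. SKP2, the F-box protein that recognises CDKN1B together with CKS1B, had 44.9, 35.9 and 47.8 RPKM in MII14c, MII15 and MII15c, against 8.07, 14.1 and 9.10 RPKM in GV14, GV14c and GV15 (log2 change 1.97 ± 0.27, SE; limma adjusted p = 0.000737). All MII values lay well above the highest GV value. The symbol SKP2 has 4 further rows, none of which averaged above 0.273 RPKM in either stage.

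CUL1, the scaffold of SCF, averaged 1976 ± 205 RPKM in MII and 951 ± 267 RPKM in GV, and SKP1, its adaptor, 2991 ± 454 RPKM in MII and 1896 ± 255 RPKM in GV (SD, n = 3 each; limma adjusted p = 0.00892 and 0.0398). Both values are those of the most abundant row of the symbol. A second tested row of CUL1, ENSBTAG00000008736, averaged 2.325 RPKM in MII and 1.74 RPKM in GV, and one of SKP1, ENSBTAG00000046232, 7.59 RPKM in MII and 5.63 RPKM in GV, and neither passed (adjusted p = 0.862 and 0.321). FBXO4, an F-box protein described for cyclin D1, averaged 58.7 ± 8.002 RPKM in MII and 23.8 ± 2.81 RPKM in GV, and USP37, a deubiquitinase of cyclin A, 22.9 ± 3.85 RPKM in MII and 11.1 ± 0.732 RPKM in GV (adjusted p = 0.00229 and 0.0133). CDC34, a ubiquitin-conjugating enzyme of SCF, fell to 0.445 ± 0.384 RPKM in MII, against 3.71 ± 0.805 RPKM in GV (log2 change -1.73 ± 0.33; adjusted p = 0.00362). The calls of SKP2, FBXO4 and CDC34 held under every alternative in which they were tested. SKP1 lost its call under 10 of 18, among them without any 1 of GV14, GV14c, GV15, MII15 or MII15c. USP37 lost its call without MII15c (adjusted p = 0.0551), which left 3 of the list higher, and without both columns that match no title 2 were, SKP2 and FBXO4.

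Activators of CDKs moved the other way or did not pass. Of 7 tested, 3 were lower and 0 higher (0 also at an unadjusted limma p under 0.05, and 1 with library weights), with a median log2 change of -1.36. CCNH, the cyclin of the CDK-activating kinase, had 50.5, 30.4 and 47.6 RPKM in MII14c, MII15 and MII15c, against 133, 128 and 149 RPKM in GV14, GV14c and GV15 (log2 change -1.68 ± 0.24, SE; limma adjusted p = 0.000869). A second CCNH row, ENSBTAG00000011650, was lower too (-1.65 ± 0.31; adjusted p = 0.00319), and reads may be shared between them. CDC25A, a phosphatase that activates CDK2, averaged 2.99 ± 1.41 RPKM in MII and 9.75 ± 2.34 RPKM in GV, and CDK20 0.403 ± 0.331 RPKM in MII and 2.66 ± 0.982 RPKM in GV (SD, n = 3 each; adjusted p = 0.0119 and 0.0133). CDK7, the kinase that CCNH activates, was at 481 ± 63.7 RPKM in MII and 383 ± 57.4 RPKM in GV and did not pass (adjusted p = 0.232). SPDYA, at 34.8 ± 2.40 RPKM in MII and 27.4 ± 3.61 RPKM in GV, did not pass either (limma adjusted p = 0.243). Every MII library lay above every GV library for SPDYA, and 4 genes of the list had the opposite order. Among all tested genes these orders held for 19.8% and 32.1%. Without both columns that match no title 1 gene, CCNH, remained lower, and CDK20 was also lost without GV14 (adjusted p = 0.054).

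**Figure D5:**
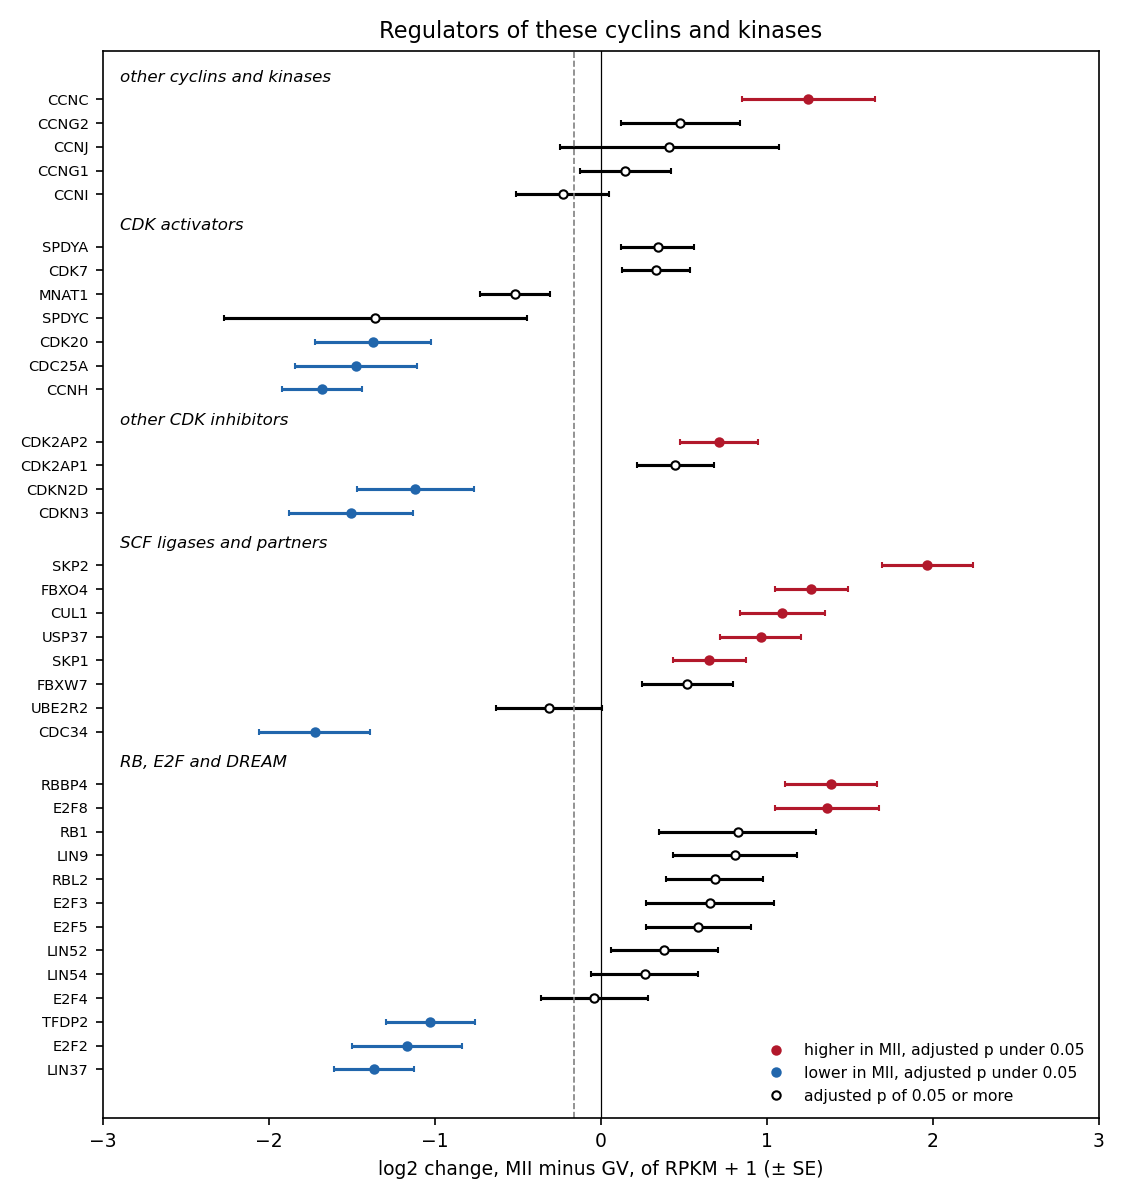
Log2 change of RPKM + 1, MII minus GV, for the 37 tested genes of 5 lists of regulators; points are limma estimates and bars are ± SE, with filled red for higher and filled blue for lower at an adjusted p under 0.05. The dashed line is the median of all tested genes; SKP2 is at 1.97 and CCNH at -1.68.

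Genes of the RB and E2F system, which controls transcription of cyclins E and A in somatic cells, had calls in both directions. Of 13 tested, RBBP4 and E2F8 were higher, LIN37, TFDP2 and E2F2 were lower and 8 did not pass. Beside them, 13.4% of all tested genes were called higher and 26.9% lower. The list's median log2 change was 0.59. RBBP4, a histone-binding subunit of the DREAM repressor, averaged 292 ± 75.4 RPKM in MII and 111 ± 32.2 RPKM in GV (SD, n = 3 each; log2 change 1.39 ± 0.28, SE; limma adjusted p = 0.00431). LIN37, another DREAM subunit, averaged 34.7 ± 4.75 RPKM in MII and 92.3 ± 21.4 RPKM in GV (-1.37 ± 0.24; adjusted p = 0.00228). RB1 itself was at 10.9 ± 3.09 RPKM in MII and 6.62 ± 4.97 RPKM in GV and did not pass (adjusted p = 0.195). TFDP2 and E2F2 lost their call without GV14 (adjusted p = 0.0559 and 0.079), which left 1 lower, and E2F2 also without MII14c (0.077). After quantile normalization 8 genes of the list were higher.

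Among other CDK inhibitors, 4 of 9 were tested, with a median log2 change of -0.34. CDKN3, a phosphatase that acts on CDK2, averaged 0.374 ± 0.462 RPKM in MII and 2.90 ± 1.23 RPKM in GV (SD, n = 3 each; log2 change -1.51 ± 0.37, SE; limma adjusted p = 0.0118). This call held under 17 of 17 alternatives, but requiring a mean of 5 RPKM left CDKN3 untested. CDKN2D, an inhibitor of CDK4 and CDK6, was lower (-1.12 ± 0.35; adjusted p = 0.0314) and CDK2AP2, a CDK2-associated protein, was higher (0.71 ± 0.23; adjusted p = 0.0371), and each lost its call under 8 alternatives. Leaving out GV14, MII15 or MII15c ended the call of either gene, as did GV14c for CDKN2D and GV15 for CDK2AP2. CDKN1A, CDKN1C, CDKN2A, CDKN2B and CDKN2C averaged under 1 RPKM in both stages, so CDKN1B was the only inhibitor of the CIP/KIP family tested. Of 5 other tested cyclins, CCNC, the cyclin of the Mediator kinase module, was higher (3.97 ± 2.09 RPKM in MII and 0.971 ± 0.364 RPKM in GV; adjusted p = 0.0334), with a median log2 change of 0.41 over the 5. The call of CCNC was lost without GV14, GV14c, MII14c or MII15c (0.0868 to 0.134).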

How the data were processed

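RPKM values of single-oocyte RNA-seq libraries were taken from the table the authors deposited, in which reads per gene are divided by model length and library size. No source used here gives the aligner, the genome build or whether counting used strand, and DESeq is named in the submitters' processing notes without a role. Gene models came from the annotation file the authors deposited beside the table. Columns were grouped by the stage in their names. GV14c and MII15c match no sample title and were used as replicates of their stage. The sample titles GV15c and MII14 have no column of that name. A label that calls all samples matured in vitro goes against the stage labels, which were followed. The labels give adapter dilution factors of 30 for GV14 and 10 for GV15, against 50 for both MII14c and MII15. Among these columns no factor occurs in both stages, so a difference by stage is also a difference by dilution, and the effect of dilution was not tested. The title MII14, which has no column, shares the factor of 30 with GV14. GV14c and MII15c have no label of their own.

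Genes averaging 1 RPKM or more across the 6 libraries entered a test on log2(RPKM + 1), which understates changes of low genes, with limma 3.58.1 in R 4.3.3 (stage as the only term, trended variances, Benjamini-Hochberg adjustment over 8671 genes, threshold 0.05). Ratios within a library were compared by exact two-sided permutation tests. Relative depth was recovered from the steps of low RPKM values, of which 97.3% to 100.0% lay within 0.1 of a whole read. Where several rows carry one symbol of a list, the row with the highest mean stands for it. Genes whose pattern is most like a member were named for the member with the largest called rise or fall, by Pearson's r over 6 libraries. The members, the 5 pathway lists and the 2 marker lists were chosen with earlier results of these data known. The comparison by the letter c was added after values were seen.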

Additional observations from a re-analysis of the deposited data

How the results depend on the processing

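CCNA2 kept its call under all 18 alternatives. CCNE1 kept it under 16 of the 17 that tested it, all but the one without both columns that match no title, and a mean of 5 RPKM left it untested. With those columns left out, 1 member was higher, 352 of all genes were higher and 1280 lower, and 3 and 5 genes of the pathway lists. Quantile normalization gave 2133 higher among all genes and 16 in the pathway lists, and library weights gave 2262 and 16. Requiring that mean left 2 members higher and 4 pathway genes lower. Leaving out 1 library at a time gave 2 to 3 members higher and 0 lower, 585 to 1338 of all genes higher and 1719 to 2201 lower, and 5 to 9 pathway genes higher and 5 to 10 lower.

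Direction changed only in members without a call, the cause of which was not tested. CCNA1 came to -0.12 with library weights, -0.11 with the replicate block and -0.30 to 0.25 with 1 library left out, and CCNE2 to 0.13 after quantile normalization. CDK2 came to 0.16 with median-ratio scaling, 0.18 with quantile normalization, 0.035 with TPM scaling, 0.30 with library weights, 0.21 with the replicate block, 0.34 without both unmatched columns and -0.49 to 0.43 with 1 library left out. CDK4 came to 0.30 with quantile normalization and 0.0021 without both unmatched columns. CDKN1B came to 0.065 with median-ratio scaling, 0.26 with the letter as a term and -0.78 to 0.17 with 1 library left out. The ratio of CCND2 to CDK4 was -0.038 without both unmatched columns. With 1 library left out it was -0.0069 to 0.51, that of CDK2 to CDK4 -0.30 to 0.78 and that of CDKN1B to CDK2 -1.21 to 0.50.

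Pooled over the letter c, the numbers 14 and 15 in the column names did not separate the pairs of libraries. Deviations correlated at -0.226 to 0.427 for the same number and -0.409 to 0.261 for different numbers. Where both or neither carried the letter, r was 0.330 and 0.427 for the same number, against 0.0667 and 0.261 for different numbers. Where the letter differed, r was -0.00826 and -0.226 for the same number, against -0.0993, -0.380 and -0.409, so these overlapped. Pairing by number within the letter was not tested. With the number as a replicate block 3 members were higher and 0 lower, and all genes gave 1141 higher and 2134 lower. Depth limits CCND2, and 3 libraries a stage limit every exact test to p = 0.1.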

Other observations

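The annotation notes give the reads that support each gene model and how many were spliced, without naming a library, so these are values over an unstated pool. Over 7300 genes with at least 500 supporting reads and at least 2 coding exons the median spliced share was 3.38%. CDKN1B had 1 spliced read of 7157 (0.014%), a share below which 2.92% of those genes lay. The ranking does not allow for exon number or model length. CDKN1B has only 2 coding exons, and 4361 bases of its 5473-base model lie past the stop codon. CCNA2 had 10 of 7278 (0.137%), with 5.55% of genes lower, although its model has 8 coding exons. CCNE2 stood at the other end, with 63 of 644 (9.78%) and 95.0% of genes lower. CCNE1 had 42 of 1843 (2.28%), CKS1B 868 of 23530 (3.69%) and CKS2 507 of 26598 (1.91%).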
